A study of Mus musculus with 23 samples.

Results

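The tumours described here are medulloblastoma allografts taken after 8 h of LDE225 at 40 mg/kg, compared with vehicle-treated allografts. Arrays were grouped by their description label, which put 3 arrays in the 8 h drug group and 5 in the vehicle group. The 5 vehicle arrays pool 3 with no stated time and 2 labelled 4 h, because no vehicle array labelled 8 h is among the samples analysed here. These 8 arrays are part of a series of 23. All 45037 probe sets that are not array controls, of 45101 in the deposited table, were taken. Every tumour in both groups came from medulloblastoma cells of the genotype Ptch+/-HIC+/-, inoculated under the skin of the flank of Harlan nu/nu mice. These hosts lack a thymus but keep myeloid cells, vessels and fibroblasts, so each RNA sample mixes mouse tumour with mouse host. The labels call all 8 samples sensitive in the tumour status field, although the source name of the 3 drug arrays at 8 h says resistant. The description and tumour status were followed. Nothing in the labels says whether same-group arrays came from separate mice or how many doses were given, and host age is not given. P-values below therefore measure the spread between arrays only, pooled over the groups of all 23 arrays of the series. Fewer cells of a type cannot be told apart from less RNA per cell.

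LDE225, also known as sonidegib, binds and inhibits Smoothened, the membrane protein that carries the Hedgehog signal. Without ligand, the receptor Patched holds Smoothened off. Loss of Patched leaves Smoothened active, GLI transcription factors enter the nucleus, and they raise transcription of Ptch1, Gli1, Hhip and growth genes. Granule neuron progenitors of the cerebellum divide under this signal, and medulloblastomas with Patched loss resemble them. Genes of the cell cycle are transcribed in waves: E2F factors drive genes for DNA replication before and during S phase, and a later wave, bound by the MuvB complex and FOXM1, supplies genes for mitosis.

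Tissue identity was checked first. Atoh1, the transcription factor that defines granule neuron progenitors, gave a signal of 4533, 4899 and 4965 on the 3 drug arrays and 4705, 3815, 3784, 3317 and 3355 on the 5 vehicle arrays. Here and below vehicle values are given in the order of the 3 arrays with no stated time and then the 2 labelled 4 h. Zic1, another granule lineage factor, read 5495, 5119.7 and 5878 with drug and 4663, 4099.8, 4404, 4807 and 4619 with vehicle; it and other genes said to be added were chosen after their values were seen. The median signal of an array was 36.5 to 38.4 with drug and 36.0 to 39.3 with vehicle. The ratio of 3' to 5' probe signal for actin, a measure of RNA integrity and labelling, was 1.26 ± 0.08 (SD, n = 3) on the log2 scale with drug and 1.10 ± 0.10 (SD, n = 5) with vehicle. That difference was not tested for a part in the results below. The sample titles are numbers, and they fall into runs: the 3 drug arrays share a run of consecutive numbers with 4 h vehicle array 2, while the 3 vehicle arrays with no stated time lie in another run and 4 h vehicle array 1 in neither. What a run stands for is not given. For most lists the calls that were also made against the 4 h vehicle alone are given beside the main count. Of that control only array 2 shares the run of the drug arrays, so it does not set run differences aside. Fits with the run as a block, a term for differences between runs, are given for the whole comparison and for some lists.

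At 8 h, 2367 of 35066 probe sets that passed the filter on low signals were called, which is 6.75%. A call means a Benjamini-Hochberg adjusted p under 0.05 in a limma fit of log2(signal + 16). Of these, 1160 probe sets (3.31%) were higher with drug and 1207 (3.44%) were lower. With 1 probe set taken for each gene, the one with the highest mean signal, 686 of 14980 genes were higher (4.58%) and 667 were lower (4.45%), and the median log2 difference of all genes was 0.03. The falls were the larger changes: 233 called genes were lower by at least 1 on the log2 scale and 31 by at least 2, against 130 and 10 that were higher. On the signal scale the 3 drug arrays lay wholly outside the range of the 5 vehicle arrays for 1275 of the 1353 called genes, which are 9.03% of those tested. Non-overlap of this kind held for 11% of all genes in the upward direction and 8.32% in the downward direction. Against the 2 vehicle arrays at 4 h alone, 624 of the 1353 genes were called the same way and 1352 kept their sign; 2.12% of all genes were called higher in that fit and 2.48% lower. With the 3 no-time vehicle arrays as the only control, 1064 were called the same way and 1353 kept their sign. With the title run as a block, 983 probe sets were called. Of the 1353 genes, 554 were then called the same way and 1353 kept their sign. Leaving out drug array 1, 2 or 3 gave 1410, 1432 and 1422 called probe sets.

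Genes of the Hedgehog pathway were lower at the output and receptor ends and showed few calls between them. Of the 3 GLI factors, which are the transcription factors of the pathway, Gli1 and Gli2 fell and Gli3 was not called. Gli1, itself a direct target and the usual readout of pathway activity, read 4.7, 23.5 and 3.4 with drug and 631, 696, 710.2, 517 and 699.6 with vehicle. Drug arrays 1 and 3 were near the bottom of the array's range, and drug array 2 was close to its 40th percentile of 23.1. All vehicle arrays were at 517 or above. The log2 difference was -4.72 ± 0.28 (SE), adjusted p = 3e-11. Because 16 was added to each signal before the log, the change of so low a signal is understated. Gli2, the main activator downstream of Smoothened, read 484, 423 and 488 with drug and 1399.8, 1176, 1319, 1478 and 1271 with vehicle, a 2.79-fold fall, log2 difference -1.48 ± 0.12 (SE), adjusted p = 9.6e-09. Gli3, which acts mostly as a repressor, had signals of 3.8 to 35.5 on the 8 arrays and no call.

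Receptors and binding proteins of the ligand were measured with 10 genes, of which 3 were lower and none was higher. Ptch1, the receptor that restrains Smoothened and is itself a target, read 679.7, 784 and 729 with drug and 2830.5, 2513, 2796, 2383 and 2081 with vehicle. Every drug array lay below every vehicle array, a 3.38-fold fall (log2 difference -1.76 ± 0.14 SE, adjusted p = 3.9e-09). This tumour line was built on loss of a Ptch copy, and where in the gene the probe sets lie was not examined. Hhip, a decoy that binds the ligand, read 56.1, 73.4 and 64.4 with drug and 210.2, 184, 238, 343 and 258 with vehicle, with the 2 highest values in the 4 h vehicle arrays. Its log2 difference was -1.68 ± 0.31 (SE), adjusted p = 0.00096. Boc, a co-receptor, read 529.7, 546 and 552 with drug and 1260.2, 1101, 1223, 1082 and 1136 with vehicle, log2 difference -1.07 ± 0.11 (SE), adjusted p = 4.7e-07. The co-receptors Cdon and Gas1 gave -0.06 and -0.16 on the log2 scale and overlapped with vehicle. Lrp2, Disp1, Hhat, Gpc3 and Scube2 had signals of at most 79.3 on the 8 arrays and no call, although the 3 Scube2 values of 23.7 to 25.8 lay above the vehicle values of 2.4 to 6.3 (adjusted p = 0.067). The 3 ligand genes Shh, Ihh and Dhh read 1.9 to 49.5 on the 8 arrays, with log2 differences of -0.17, -0.07 and 0.08.

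Transducers between Smoothened and GLI gave 1 rise and 2 falls among 16 genes, and their median log2 difference was -0.01. Smo itself, the target of the drug, read 503, 548 and 529 with drug and 565, 666, 551, 460.1 and 677 with vehicle. The ranges overlapped and the log2 difference was -0.13 ± 0.11 (SE), adjusted p = 0.57. Stk36, a kinase homologous to fly Fused, rose from 25, 59.4, 34, 37.3 and 23.5 with vehicle to 93.5, 88.9 and 75.8 with drug (log2 difference 1.01 ± 0.20 SE, adjusted p = 0.0019). Sufu, which holds GLI factors in the cytoplasm, read 224, 198 and 226 with drug and 327, 255, 317, 322 and 280.5 with vehicle, log2 difference -0.44 ± 0.12 (SE), adjusted p = 0.024. Spop, an adaptor for GLI degradation, read 1039, 900.2 and 989.9 with drug and 1592, 1744, 1524, 1268 and 1181 with vehicle. The call of Sufu was lost without any 1 of the 3 drug arrays, without no-time vehicle arrays 1 or 3 and without 4 h vehicle array 1 (adjusted p up to 0.14), and that of Spop without drug array 2 (adjusted p 0.079). Against the 4 h vehicle alone neither was called (adjusted p = 0.13 and 0.35). Without no-time vehicle array 1 or 4 h vehicle array 2 the rises of this list numbered 2. The other 12 members, Kif7, Gpr161, Evc, Evc2, Gsk3b, Csnk1a1, Prkaca, Btrc, Cul3, Gnas, Prkar1a and Tulp3, had log2 differences from -0.27 to 0.29 and no call.

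**Figure D1:**
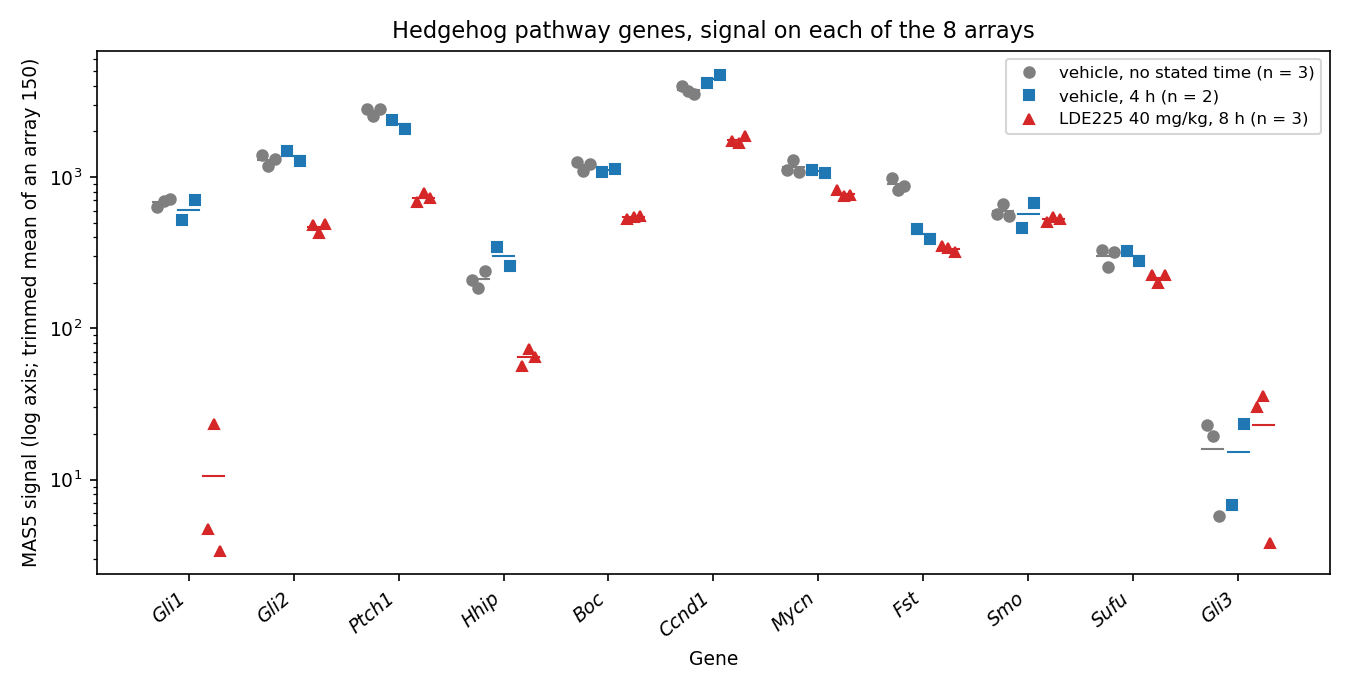
MAS5 signal (log axis) of 11 Hedgehog pathway genes on each of the 8 arrays; grey circles are vehicle arrays with no stated time, blue squares 4 h vehicle arrays, red triangles 8 h drug arrays, and short lines the group means. Gli1 lies between 3.4 and 23.5 on the drug arrays and at 517 or above on the vehicle arrays, while Smo overlaps between groups and the 2 Fst values of the 4 h vehicle arrays lie close to the drug arrays.

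Among 23 measured genes known as Hedgehog targets in one tissue or another, 12 fell and none rose, a share of 52.2% lower against 4.45% of all genes; the list holds the 5 pathway genes just given that fell at the output and receptor ends. Its median log2 difference was -0.63. Ccnd1, the cyclin that starts the G1 phase with Cdk4 and Cdk6, read 1739, 1667 and 1876 with drug and 3971, 3719, 3533, 4146 and 4749 with vehicle, a 2.27-fold fall in all 3 of its probe sets (log2 difference -1.18 ± 0.13 SE, adjusted p = 7.6e-07). Mycn, the Myc family member that drives granule progenitor growth, read 816, 748 and 756 with drug and 1111, 1286, 1079, 1106 and 1068 with vehicle, a smaller fall of 1.45-fold that 1 of its 3 probe sets carried (adjusted p = 0.0025, and 0.055 against the 4 h vehicle alone). Cdk6 read 721, 895 and 838 with drug and 2126, 1444, 1822, 1766 and 1841 with vehicle, log2 difference -1.12 ± 0.17 (SE). Ccnd2, the D cyclin typical of granule progenitors, read 92.2, 66.1 and 89.1 with drug and 73.8, 159, 141, 79.5 and 119 with vehicle and overlapped. Sfrp1, a Wnt antagonist, also overlapped, at -0.29 on the log2 scale. Fst, the activin antagonist follistatin, read 348, 338 and 318 with drug, 979, 823 and 874 with vehicle of no stated time and 454 and 388 with 4 h vehicle. Its log2 difference was -0.95 ± 0.24 (SE) against all vehicle, adjusted p = 0.016, but -0.31 against the 4 h vehicle alone, adjusted p = 0.6. Without any 1 of the 3 drug arrays the Fst call was also lost (adjusted p up to 0.076). Snai1, a repressor of epithelial genes added here, read 29.8, 24.5 and 18.4 with drug and 96.5, 84.3, 68.6, 70.8 and 87.4 with vehicle. Against the 4 h vehicle alone, 8 of the 12 falls were called.

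The largest falls of the whole comparison were mostly outside the textbook pathway. After Gli1, Slc6a2, the noradrenaline transporter, read 5.6, 1.7 and 13.4 with drug and 381, 462, 422, 198 and 167 with vehicle. The 2 vehicle arrays at 4 h held the lowest of the vehicle values, and all 5 were above the drug arrays, log2 difference -3.83 ± 0.47 (SE), adjusted p = 5.8e-06. Slc18a2, the vesicular monoamine transporter, also fell, from 414, 403, 394, 295 and 209 with vehicle to 29.3, 30.1 and 25.8 with drug. Arhgap8 read 6.2, 24.1 and 2.7 with drug and 419, 357, 352, 264 and 323 with vehicle, log2 difference -3.80 ± 0.25 (SE), adjusted p = 1.2e-10. Tbata read 259.8, 286 and 263 with drug and 2748, 2566, 2433, 2446 and 2535 with vehicle, a 8.96-fold fall in all 4 of its probe sets (log2 difference -3.16 ± 0.13 SE, adjusted p = 9.4e-14). The genes of the peptidylarginine deiminases Padi2 and Padi3, enzymes that turn arginine in proteins into citrulline, both fell. Padi2 read 69.9, 113 and 101 with drug and 1056, 887, 898, 1009 and 842 with vehicle, and Padi3 4.5, 16.5 and 15.5 with drug and 245, 195, 198, 70 and 74.1 with vehicle, where the 4 h vehicle arrays were again the lower ones. Epha8, an ephrin receptor, read 1.4, 3 and 16.7 with drug and 187, 167, 95.4, 186 and 159 with vehicle. Fam155a, a subunit of a sodium leak channel, Col27a1, a fibrillar collagen, Slco3a1, an organic anion transporter, Tex36 and Amigo2, a neuronal adhesion protein, had log2 differences of -2.73, -2.62, -2.59, -2.61 and -2.43. Sox18, a transcription factor known for its role in blood and lymph vessels, read 108, 164 and 129 with drug and 523, 539.8, 697, 903 and 913 with vehicle, the 4 h vehicle arrays being highest, log2 difference -2.27 ± 0.22 (SE), adjusted p = 1.5e-07. Cdc6, described with the replication genes, completed the 15 largest falls.

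The 15 largest rises were led by Igfbp5, a secreted binding protein for insulin-like growth factors, which read 3100.1, 3324 and 2988 with drug and 374, 467, 397, 538 and 506 with vehicle. That is a 6.73-fold rise, log2 difference 2.75 ± 0.39 (SE), adjusted p = 4.1e-05. Its relative Igfbp2 rose as well, to 630.5, 726 and 684 from 173, 98.3, 117, 130.3 and 138. Chrna3 and Chrnb4, neighbouring genes for nicotinic acetylcholine receptor subunits that assemble with each other, rose together. Chrna3 read 731, 616 and 821 with drug and 80.1, 78.7, 61, 192 and 159 with vehicle, and Chrnb4 254, 299.5 and 266 with drug and 32.2, 24.8, 21.4, 49.8 and 58.5 with vehicle. In both genes the 4 h vehicle arrays were higher than the other vehicle arrays and still below every drug array. Lrrtm1, a synaptic adhesion protein, read 595, 593 and 608 with drug and 86.5, 95, 90.8, 147 and 109.5 with vehicle, log2 difference 2.36 ± 0.31 (SE), adjusted p = 1.5e-05. Cemip, a hyaluronan-degrading protein, read 426, 436 and 487 with drug and 84.4, 119.8, 87.9, 60.7 and 68.8 with vehicle, log2 difference 2.24 ± 0.24 (SE). B3gat1, the enzyme that makes the HNK-1 epitope of neural cells, read 292, 333 and 294 with drug and 49.3, 42.3, 57.8, 49.6 and 70.7 with vehicle. Dmrta1, a transcription factor, read 151, 157 and 145 with drug and 3.1, 15.1, 28.9, 40.4 and 13.8 with vehicle. Nol4l, Rab25, Iffo2, Atxn7l2 and the unnamed transcript A330076H08Rik had log2 differences of 2.17, 2.06, 1.91, 1.78 and 1.76. Cntn2, an axonal adhesion protein, and Barhl1, a granule lineage factor, are described with the neuronal genes. Of the 30 genes in both sets, Cntn2 alone was not called against the 4 h vehicle (adjusted p = 0.46).

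**Figure D2:**
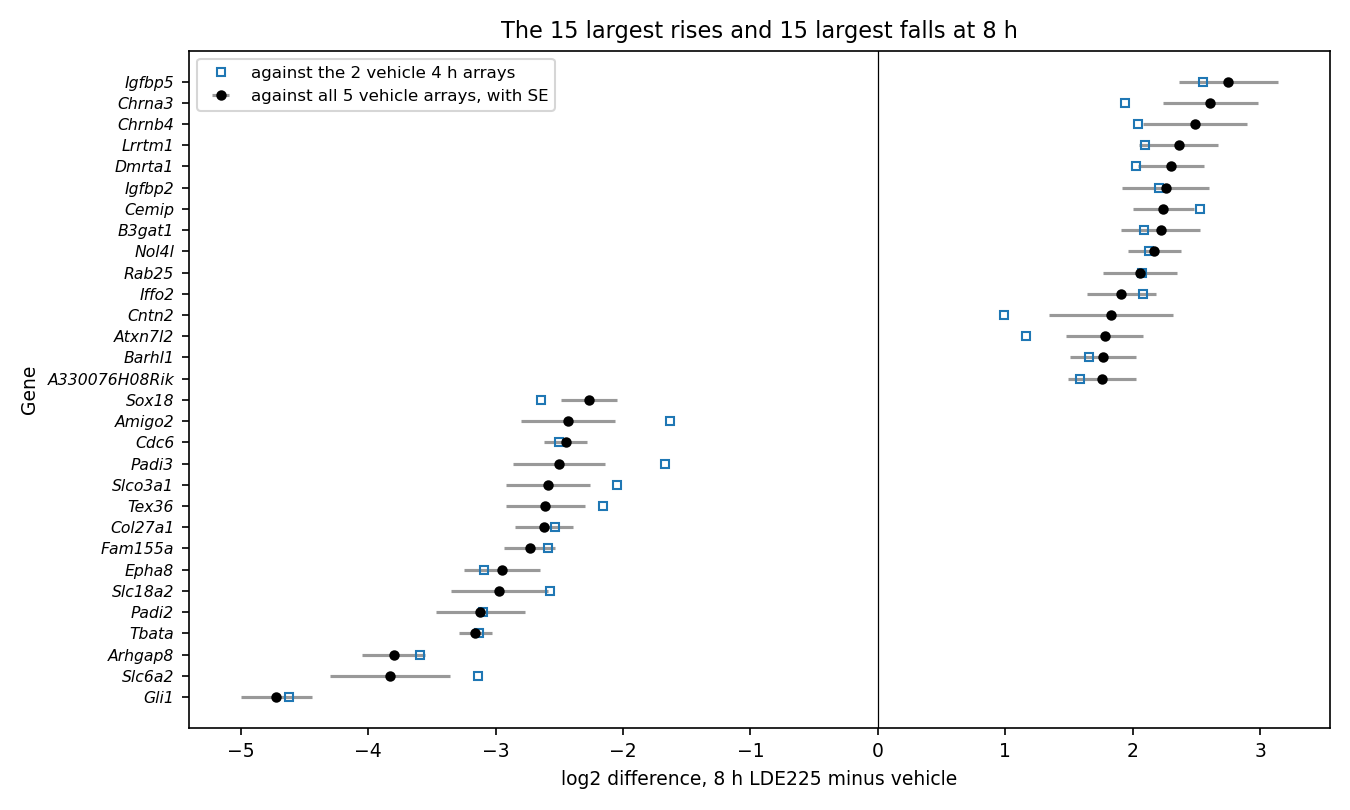
Log2 difference of 8 h drug minus vehicle for the 15 largest rises and 15 largest falls; black points with bars give the value and SE against all 5 vehicle arrays, open blue squares the value against the 2 vehicle arrays at 4 h alone. Gli1 is lowest at -4.72 and Igfbp5 highest at 2.75, and the widest gaps between the 2 controls are those of Cntn2, Padi3 and Amigo2.

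Genes that license and fire replication origins were widely lower. Of 19 measured genes of origin licensing and the MCM helicase, the ring that unwinds DNA at the fork, 14 fell and none rose, which is 73.7% against 4.45% of all genes, and the median log2 difference was -0.81. Cdc6, which loads the helicase onto origins, read 58, 77.7 and 50.5 with drug and 394, 428, 377, 363 and 487 with vehicle, a 5.48-fold fall (log2 difference -2.45 ± 0.17 SE, adjusted p = 7.2e-10). Cdt1, its partner in loading, read 425, 449.8 and 431 with drug and 1796, 1927, 1985, 1730.3 and 2215 with vehicle, log2 difference -2.10 ± 0.13 (SE), adjusted p = 8.4e-11. The drug values of both genes spread little and lay far below the lowest vehicle array. Helicase subunits fell by different amounts. Mcm3, Mcm4 and Mcm5 had log2 differences of -1.71, -1.74 and -1.53, and Mcm2, Mcm6 and Mcm7, added here to complete the ring, -1.14, -0.91 and -0.58. Mcm5 read 754, 778 and 763 with drug and 2015, 2269, 2298, 2082 and 2590.1 with vehicle. Mcm7, the least changed subunit, read 3554, 3896 and 3741 with drug and 5618, 5873, 5872, 4652 and 6072 with vehicle, and the groups still did not overlap. Gmnn, geminin, which blocks Cdt1, also fell, to 281, 305 and 298 from 698, 796, 726, 717 and 781. The members without a call were Orc1, Orc3, Orc4 and Orc5 of the origin recognition complex and Mcm9; Orc1 read 23.6, 55.5 and 31.6 with drug and 50.6, 70.9, 83.7, 64.2 and 112 with vehicle. Against the 4 h vehicle alone 10 of the 14 were called lower, and against the single 4 h vehicle array from the title run of the drug arrays also 10, where 1.48% of all genes were called lower.

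Upstream sequence of these genes is shown because E2F-type letters are frequent in it, beside genes of mitosis that lack a call at 8 h. The 250 bases before the start of a gene were searched on both strands for TTTCCCGC, TTTCGCGC, TTTGCCGC and TTTGGCGC, forms of the E2F site, for TTTGAA, the core of the CHR element of mitotic genes, and for GACCACCCA, a form of the GLI site. Matches are in capitals and may overlap. The search was chosen after the expression values were known. Sequences are RefSeq promoters of build GRCm38.p6, written 5′ to 3′ on the strand of the gene. Cdc6 lies at chr11:98907901-98908150, plus strand, with 1 match. Mcm6 lies at chr1:128359706-128359955, minus strand, with 3 matches, of which 2 overlap. Cdk1, the kinase that starts mitosis, lies at chr10:69352913-69353162, minus strand, and Cdc20, an activator of the anaphase-promoting complex, at chr4:118437344-118437593, minus strand. Cdk1 holds both kinds of letters and Cdc20 holds TTTGAA only.
Cdc6: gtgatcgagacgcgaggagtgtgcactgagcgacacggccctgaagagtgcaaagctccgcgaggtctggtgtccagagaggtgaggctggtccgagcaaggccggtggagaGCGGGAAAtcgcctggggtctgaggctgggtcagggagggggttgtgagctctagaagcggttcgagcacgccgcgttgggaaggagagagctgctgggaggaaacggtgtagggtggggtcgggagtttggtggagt
Mcm6: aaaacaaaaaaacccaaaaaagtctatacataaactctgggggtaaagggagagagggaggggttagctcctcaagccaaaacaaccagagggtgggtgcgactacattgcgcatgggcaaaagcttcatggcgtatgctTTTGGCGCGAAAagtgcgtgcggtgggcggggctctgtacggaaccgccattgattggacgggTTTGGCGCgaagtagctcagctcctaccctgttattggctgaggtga
Cdk1: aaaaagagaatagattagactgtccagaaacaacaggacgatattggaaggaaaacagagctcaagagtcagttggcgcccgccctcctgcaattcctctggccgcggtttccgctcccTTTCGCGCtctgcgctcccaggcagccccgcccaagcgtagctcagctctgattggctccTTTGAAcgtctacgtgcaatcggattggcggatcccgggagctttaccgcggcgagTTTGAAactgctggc
Cdc20: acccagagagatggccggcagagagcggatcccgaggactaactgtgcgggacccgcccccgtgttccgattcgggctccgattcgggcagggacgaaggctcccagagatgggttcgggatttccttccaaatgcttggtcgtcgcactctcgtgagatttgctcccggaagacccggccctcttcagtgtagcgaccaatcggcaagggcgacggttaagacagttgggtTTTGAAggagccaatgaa
An E2F form was found in 7 of 17 licensing genes with a promoter entry, 6 of 34 fork genes, 1 of 19 nucleotide synthesis genes and 3 of 52 mitosis genes, against 427 of 11982 tested genes (3.56%). The 7 licensing genes include Orc1 and Orc3, which were not called. They do not include Cdt1, Mcm2, Mcm3 or Mcm4, which were called lower. Among genes called lower the share was 9.39% (49 of 522), and among genes called higher 2.63% (15 of 570). TTTGAA was found in 1 of 17 licensing genes, 7 of 34 fork genes and 19 of 52 mitosis genes, against 13.2% of tested genes, 10.9% of genes called lower and 13.2% of genes called higher. GACCACCCA was found in none of 14 Hedgehog targets with an entry, 2 of 522 genes called lower (0.383%) and 25 of 11982 tested genes (0.209%). A match is a description of the letters and not evidence that a factor binds.

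Fork and S phase genes fell more widely still. Of 42 measured, 35 fell and none rose (83.3%), with a median log2 difference of -0.96 and a range of -1.83 to -0.15. Pcna, the sliding clamp of the polymerases, read 2179, 2414 and 2394 with drug and 6090.1, 6259.7, 5628, 5150.1 and 6197 with vehicle, a 2.5-fold fall (log2 difference -1.32 ± 0.13 SE, adjusted p = 2.2e-07). Pola2, a subunit of the priming polymerase, read 114, 122 and 98 with drug and 296, 334, 312, 309 and 328 with vehicle, and Rpa2, which coats single-stranded DNA, read 140.1, 179 and 164 with drug and 397, 462, 511, 404 and 469 with vehicle. No drug array reached a vehicle array in these genes. Wdhd1, a fork adaptor, and Uhrf1, which guides maintenance methylation behind the fork, had log2 differences of -1.21 ± 0.13 and -1.30 ± 0.15 (SE). The lowest member was Chaf1b, a chromatin assembly factor added here, at 94.6, 72.5 and 107 with drug and 368, 315, 371, 331 and 442 with vehicle. Against the 4 h vehicle alone 29 of the 35 were called lower, and with the title run as a block 32. Against the single 4 h vehicle array of the same run the median log2 difference was -1.09. For other lists, given above or below, the block kept 8 of the 12 falls of Hedgehog targets and 4 of the 13 neuronal rises. It kept 2 of 5 rises and 1 of 5 falls in the Notch list. Among cell cycle inhibitors it kept 3 of 5 rises and 2 of 4 falls, and in each glial list 1 of 2 falls.

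Nucleotide supply and the G1 to S machinery followed in the same direction. Of 20 genes of nucleotide synthesis 14 fell and none rose (70%), median log2 difference -0.61, and 12 of the 14 were called against the 4 h vehicle alone. Rrm2, the regulated subunit of ribonucleotide reductase, read 1419, 1291 and 1494 with drug and 2963, 3095, 2923, 2999 and 3372 with vehicle, log2 difference -1.12 ± 0.19 (SE), adjusted p = 0.00037. Shmt1, a folate-cycle enzyme, Dut, which removes dUTP, Umps of pyrimidine synthesis and Pfas of purine synthesis had log2 differences of -0.79, -0.74, -0.79 and -0.53. Of 23 cyclins, kinases and E2F genes of G1 and S phase, 11 fell and none rose (47.8%), median -0.53, and 8 of the 11 were called against the 4 h vehicle alone. Ccne2, the cyclin that activates Cdk2 at S phase entry, read 81.8, 72 and 73 with drug and 319.9, 447, 421, 417 and 339 with vehicle, a 4.39-fold fall (log2 difference -2.13 ± 0.19 SE, adjusted p = 2.7e-08). Ccnd3 read 217, 232 and 181 with drug and 372, 424, 432, 364 and 456 with vehicle. Tfdp1, the partner of E2F proteins, read 930.0, 855 and 876 with drug and 1139, 1374, 1268, 1388 and 1689 with vehicle, log2 difference -0.61 ± 0.10 (SE). Cdk4, added here, did not differ beyond the spread of the arrays, at 1949, 2261 and 1969 with drug and 2021, 1959, 1994, 1859 and 2183 with vehicle. E2f1, also added, overlapped at 276, 306 and 266 with drug and 281, 346, 355, 453 and 568 with vehicle, and the 4 h vehicle arrays were its 2 highest. Against all vehicle its adjusted p was 0.17, and against the 4 h vehicle alone 0.015. Mybl2, which links the E2F wave to the mitotic wave, was lower at 40.1, 56.2 and 37.6 with drug and 96.9, 122, 103, 96.6 and 141 with vehicle (adjusted p = 0.0016).

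Few genes of mitosis were called at 8 h. Of 60 measured, 6 were called lower and none higher, 10% against 4.45% of all genes, and the median log2 difference was -0.14. The difference was negative in 44 of the 60, and in 20 of them all 3 drug arrays lay below all 5 vehicle arrays, which held for 8.32% of all genes. Of the 6 falls 3 were called against the 4 h vehicle alone. Mki67, the proliferation antigen, read 3715, 4144 and 4319 with drug and 4859.9, 4735, 4837, 3956 and 4842 with vehicle, log2 difference -0.19 ± 0.15 (SE), adjusted p = 0.56. Top2a, the topoisomerase that untangles chromosomes, read 3091, 3041 and 3118 with drug and 4042, 3665, 3509, 3629 and 4065 with vehicle. Its drug arrays all lay below the vehicle arrays, by -0.29 on the log2 scale, and the call was missed (adjusted p = 0.34), although 1 of its 2 probe sets was called lower. Cdk1, added here, showed the same picture, 1722, 1694 and 1718 with drug and 2137, 2058, 2125, 2118 and 2284 with vehicle (adjusted p = 0.38). Cdc20 and Plk1, the polo kinase of mitosis, both added, overlapped with vehicle: Cdc20 read 3327, 3418 and 4199 with drug and 3749, 3309, 3527, 3469.8 and 3929 with vehicle, and Plk1 621, 617 and 653 with drug and 587, 609, 579, 501 and 643 with vehicle. The members called lower included Cenpk and Cenph of the inner kinetochore (-1.04 and -1.09), the condensin subunit Smc2 (-0.84), Cdca5, the cohesin regulator sororin (-0.67), and the centriole kinase Plk4 (-0.60). Without drug array 1 the count was 3, Cenph losing its call (adjusted p 0.059), and Plk4 lost its call without drug arrays 1 or 2 (adjusted p up to 0.10).

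Values at the neighbouring times, each set against the same 5 vehicle arrays and therefore not independent of the 8 h values, are given side by side. The median log2 difference of the licensing genes was -0.17 at 4 h, -0.81 at 8 h and -1.55 at 24 h. Fork genes had medians of -0.13, -0.96 and -1.97 at these times. Mitosis genes had medians of 0.02 at 4 h, -0.14 at 8 h and -3.10 at 24 h, when all 60 were called lower, against 15.1% of all genes at that time. Host marker medians at 24 h were 2.50 for skeletal muscle, 1.26 for fibroblasts, 1.04 for macrophages and -0.36 for skin. The actin 3' to 5' log2 ratio was 1.83, 1.72 and 1.41 on the 24 h arrays and 1.00 to 1.25 with vehicle. The 24 h arrays also lie in more than 1 title run. The part of these differences in the 24 h values was not tested. Mki67 was -0.03 at 4 h, -0.19 at 8 h and -3.69 at 24 h, and Mcm5 was -0.17, -1.53 and -3.21. Gli1 was -2.53, -4.72 and -4.39.

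**Figure D3:**
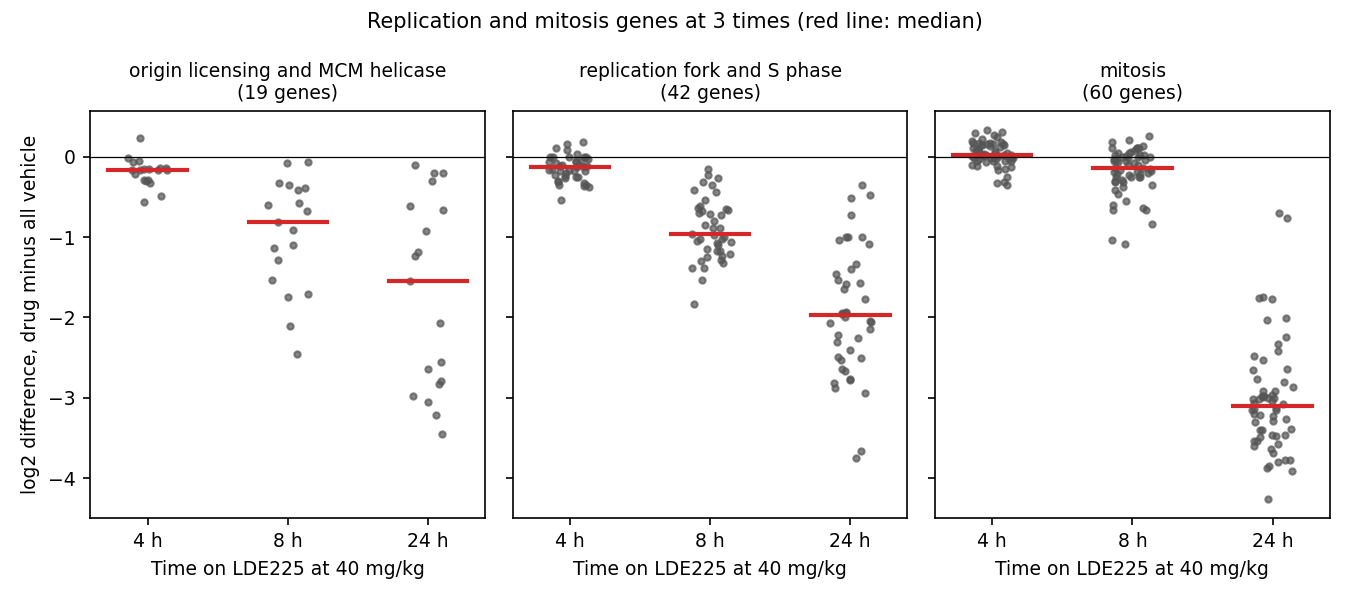
Log2 difference of drug at 40 mg/kg minus all 5 vehicle arrays for each gene (grey points) of the licensing, fork and mitosis lists after 4, 8 and 24 h; red lines are medians, and all times share the vehicle arrays. At 8 h the medians are -0.81, -0.96 and -0.14, and at 24 h the mitosis median is -3.10.

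The direct step from 4 h to 8 h of drug used no vehicle array. There 170 of 35066 probe sets were called (0.485%), 29 higher (0.0827%) and 141 lower (0.402%), and by gene 19 were higher (0.127%) and 90 lower (0.601%). Licensing genes made up 9 of the falls and fork genes 22, while 2 mitosis genes were among them. Cdc6 was lower at 8 h than at 4 h by -1.96 on the log2 scale (adjusted p = 7.8e-06), Cdt1 by -1.54 (6.7e-06), Pcna by -1.06 (0.00029) and Ccne2 by -1.61 (0.00017). Gli1 was lower by -2.19 (adjusted p = 0.00038), whereas Ptch1, Hhip and Gli2 differed by -0.57, -0.93 and -0.57 (adjusted p = 0.088, 0.39 and 0.063). Among the largest rises, Cemip, B3gat1 and A330076H08Rik were higher than at 4 h, by 1.41, 1.87 and 1.63. All 6 arrays of this step share a run of title numbers. Without 4 h drug array 2 or 3 the count of probe sets was 95 and 77, and without 8 h drug array 1, 2 or 3 it was 83, 95 and 88.

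**Figure D4:**
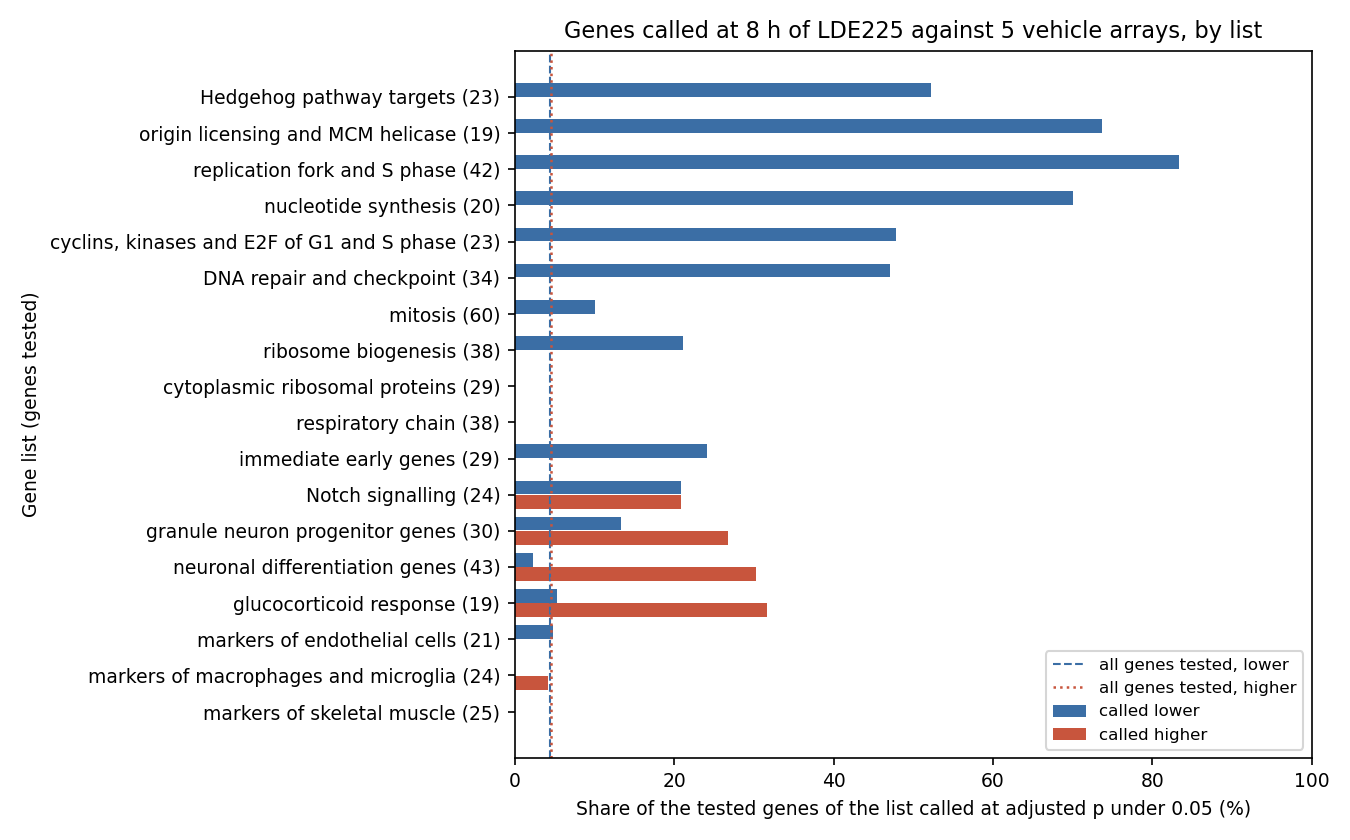
Share of the tested genes of 18 lists (number tested in brackets) called lower (blue) or higher (red) at 8 h against all vehicle; the dashed and dotted lines mark the shares of all tested genes, 4.45% lower and 4.58% higher. Fork genes reach 83.3% lower and mitosis genes 10%, and the highest shares of rises among these 18 lists are 31.6% and 30.2%, in the glucocorticoid and neuronal lists.

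DNA repair and checkpoint genes gave 16 falls and no rise among 34 (47.1%, median -0.46). Ung, which removes uracil from DNA, read 66.5, 85.4 and 72.8 with drug and 240.5, 306, 295, 300.4 and 417 with vehicle, log2 difference -1.83 ± 0.20 (SE), adjusted p = 8.8e-07. Msh6 of mismatch repair read 444, 407 and 444 with drug and 913, 923, 895, 921 and 1077 with vehicle. Chek1, the checkpoint kinase of stalled forks, Rad51ap1 and Rad18 had log2 differences of -1.12, -1.06 and -0.91. With the 4 h vehicle as the only control 12 of the 16 were called.

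Growth-arrest genes were divided. Among 18 cell cycle inhibitors and retinoblastoma family genes 5 rose and 4 fell, of which 5 rises and 2 falls were called against the 4 h vehicle alone and 2 rises and 2 falls against the no-time vehicle alone. Tob1, an antiproliferative protein, read 1752, 1564 and 1562 with drug and 996, 948, 984, 1057 and 997 with vehicle, log2 difference 0.70 ± 0.10 (SE), adjusted p = 4.1e-05, and its relative Btg1 rose by 0.42. Cdkn1c and Cdkn1b, the inhibitors p57 and p27, had 0.61 and 0.54, and Gadd45g had 0.86. Cdkn1a, the inhibitor p21, added here, was not called, at 408, 432 and 436 with drug and 529, 425, 553, 602 and 451 with vehicle. The falls were Rbl1, a pocket protein (-0.68), the Cdk1-inhibiting kinases Pkmyt1 (-0.87) and Wee1 (-0.60), and Gadd45b (-0.56). Calls were lost for Cdkn1c without drug arrays 1 or 3, for Cdkn1b without drug arrays 1 or 3, no-time vehicle array 2 or 4 h vehicle array 2, for Gadd45g without drug array 3, for Wee1 without drug array 2 or 4 h vehicle array 1, and for Gadd45b without any 1 drug array, no-time vehicle array 3 or 4 h vehicle array 1. The highest adjusted p in these was 0.26. The list held 3 rises without drug array 1 and 2 without drug array 3, and 2 falls without drug array 2 or 4 h vehicle array 1.

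In the Myc network, where Max dimers with Myc proteins activate and with Mxd proteins repress, 5 of 13 genes rose and Mycn alone fell, and against the 4 h vehicle alone 3 of these rises and not the fall were called. Mxd4, a repressor partner, read 614, 663 and 577 with drug and 282, 254, 299.7, 174 and 200.0 with vehicle, a 2.5-fold rise (log2 difference 1.32 ± 0.13 SE, adjusted p = 2.9e-07). Mycl read 1183, 1085 and 1299 with drug and 818, 726, 704, 715 and 586 with vehicle. Myc itself read 424, 346 and 405 with drug and 283, 251, 260.4, 279 and 332 with vehicle, log2 difference 0.46 ± 0.12 (SE), adjusted p = 0.015, a call lost without drug arrays 1 or 3 (adjusted p up to 0.11) and against the 4 h vehicle alone (0.26). Without any 1 of the 3 drug arrays the list held 3 rises. Ribosome biogenesis, a set often tied to Myc activity, gave 8 falls of 38 (21.1%, median -0.20), such as the nucleolar protein Nop56 (-0.50) and the polymerase I subunit Polr1b (-0.98), 4 falls without any 1 of the 3 drug arrays, and 5 without no-time vehicle array 2 or 3 or 4 h vehicle array 2. Of the 8 falls 4 were called against the 4 h vehicle alone and 5 against the no-time vehicle alone. The 29 cytoplasmic ribosomal protein genes gave no call, with log2 differences from -0.22 to 0.51 and none with an unadjusted p under 0.05 by limma.

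Granule lineage and neuronal genes rose in part. Of 30 granule neuron progenitor genes 8 rose (26.7%) and 4 fell, the falls being Gli2, Mycn, Hes1 and Notch2, of which Notch2 lost its call without any 1 of the 8 arrays but 4 h vehicle array 2 (adjusted p up to 0.20). Of the 8 rises 6, and of the 4 falls 2, were called against the 4 h vehicle alone. Barhl1, a homeobox factor of granule cells, read 822, 965 and 950.1 with drug and 257, 233, 239, 285 and 271 with vehicle, a 3.4-fold rise (log2 difference 1.77 ± 0.26 SE, adjusted p = 5.3e-05). Lhx1, another homeobox factor, read 909.7, 997 and 904 with drug and 318, 269, 297, 356 and 379 with vehicle. Sox4, a factor of early neurons, read 5075, 4767 and 5422 with drug and 2673, 2387, 2484, 2664 and 2589.8 with vehicle, and Meis1, a cofactor of homeobox proteins, 1554, 1310.3 and 1622 with drug and 778, 711, 768, 894 and 797 with vehicle. In these 4 genes all vehicle arrays lay together and below the drug arrays, and the calls held against the 4 h vehicle alone (adjusted p of 0.0036, 0.0078, 0.00055 and 0.00067). Mfap4, a matrix-associated protein, read 2315, 1793 and 1973 with drug and 475, 744, 651, 726 and 1041 with vehicle. Atoh1 was not called against all vehicle (0.35 ± 0.11 SE on the log2 scale, adjusted p = 0.051) and was called higher against the 4 h vehicle alone (0.52, adjusted p = 0.015).

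Among 43 genes tied to neuronal differentiation, 13 were called higher and 1 lower (30.2% and 2.3%), with a median log2 difference of 0.52. Elavl3, a neuronal RNA-binding protein, read 726, 702 and 714 with drug and 317, 273, 291, 409 and 351 with vehicle, log2 difference 1.10 ± 0.16 (SE), adjusted p = 6.2e-05. Cbln1, a synapse organiser secreted by granule cells, read 1357, 1537 and 1402 with drug and 688, 663, 641, 559 and 560.3 with vehicle. Snap25, a component of the vesicle fusion machinery, read 1045, 1067 and 1204 with drug and 265, 326, 331, 558 and 368 with vehicle. For these 3 genes the calls held against the 4 h vehicle alone, and they were the 3 that did. Neurod1, the factor that follows Atoh1 as granule cells leave the cycle, read 1029.9, 1031 and 1116 with drug, 336, 293 and 284 with vehicle of no stated time and 672 and 579.7 with 4 h vehicle. The 4 h vehicle arrays lay between the other groups. Its log2 difference was 1.35 ± 0.30 (SE) against all vehicle, adjusted p = 0.0049, and 0.75 against the 4 h vehicle alone, adjusted p = 0.27. Dcx, a microtubule protein of migrating neurons, read 241, 245 and 252 with drug, 38.5, 44.1 and 25.6 with vehicle of no stated time and 136 and 154 with 4 h vehicle, log2 difference 1.69 ± 0.50 (SE), adjusted p = 0.038. Cntn2 read 269, 233 and 314 with drug, 25.9, 54.9 and 39.3 and 138 and 118 with the 2 kinds of vehicle, adjusted p = 0.022. Tubb3, the neuronal beta tubulin, read 362, 393 and 414 with drug, 109.6, 105 and 90.9 and 193 and 188 in the same order. Celf4, an RNA-binding protein, was the 1 fall, at 77.7, 89.6 and 50.6 with drug and 159, 146, 143, 187 and 219.6 with vehicle. Against the vehicle of no stated time alone 19 genes of the list were higher (4.61% of all genes), and with the title run as a block 5 (1.62% of all genes). Leaving out 1 array gave 6 to 7 rises without a drug array and 8 without no-time vehicle array 3; the calls of Dcx (adjusted p up to 0.12) and Cntn2 (up to 0.10) were lost without any 1 drug array and without no-time vehicle arrays 1 or 3, that of Dcx also without array 2, and that of Celf4 without drug array 3 (0.13).

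**Figure D5:**
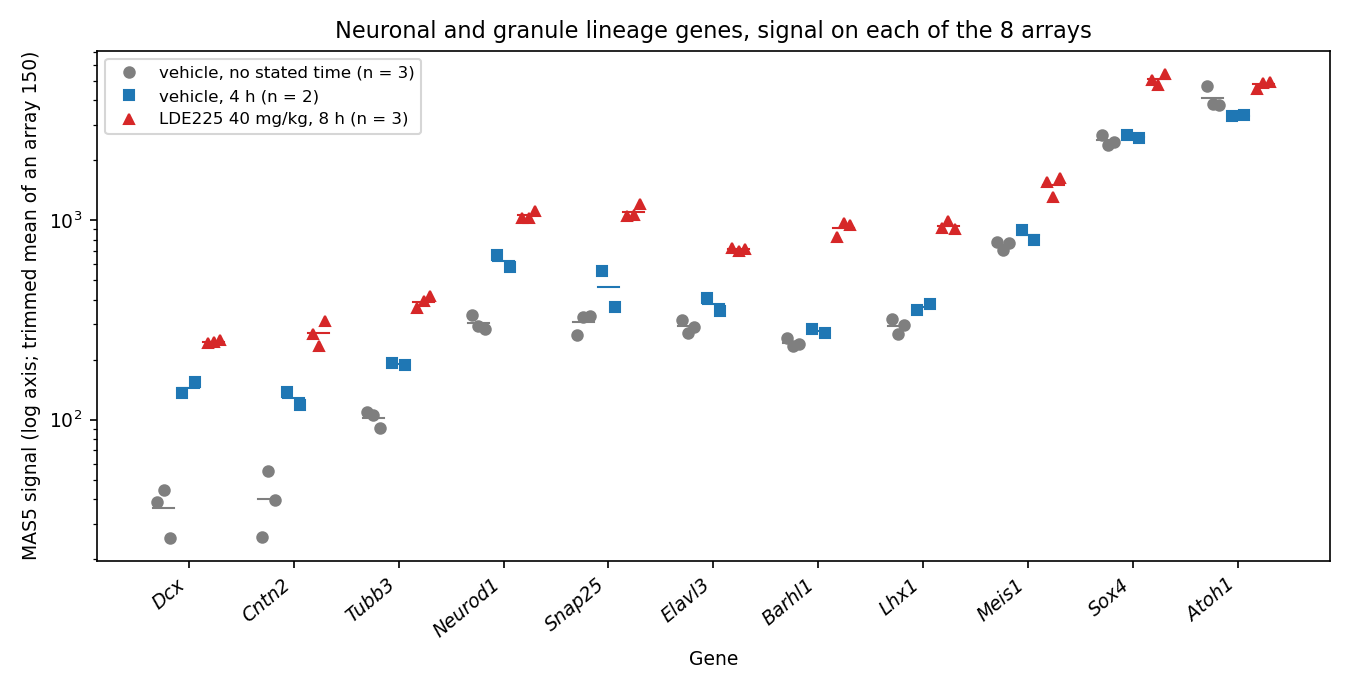
MAS5 signal (log axis) of 11 neuronal and granule lineage genes on each of the 8 arrays, with symbols for the groups and lines for their means as in the plot of Hedgehog genes. In Dcx, Cntn2, Tubb3 and Neurod1 the 4 h vehicle arrays lie between the other vehicle arrays and the drug arrays, whereas in Barhl1, Lhx1, Meis1 and Sox4 all vehicle arrays lie close together below the drug arrays.

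The 2 vehicle groups were compared with each other for this reason. Between 4 h vehicle and vehicle of no stated time, 43 of 35066 probe sets were called (0.123%), 11 higher (0.0314%) and 32 lower (0.0913%) at 4 h, which came to 30 genes. Leaving out any 1 of these 5 vehicle arrays gave 15 to 20 probe sets (15, 17 and 20 without no-time array 1, 2 or 3, and 17 without either 4 h array). Of these genes 11 were also called at 8 h of drug. None of the genes named elsewhere in this account was called between the vehicle groups. An example is Zfand6, added here, a zinc finger protein, which read 2183, 2880.1 and 2321 with drug, 11647, 9642 and 9667 with vehicle of no stated time and 2348 and 2263 with 4 h vehicle. It was called lower with drug against all vehicle (-1.21 ± 0.37 SE on the log2 scale, adjusted p = 0.048, lost without any 1 drug array or no-time vehicle array, up to 0.18), and against the 4 h vehicle alone the difference was 0.08 (adjusted p = 0.9). The median difference of the neuronal differentiation genes between the vehicle groups was 0.40 on the log2 scale, higher at 4 h. For licensing genes it was 0.07, for fork genes 0.08 and for Hedgehog targets -0.08.

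Among signalling genes, the insulin-like growth factor and PI3K list gave 4 rises and 2 falls of 32, and all 4 rises and 1 of the falls were called against the 4 h vehicle alone. Besides Igfbp5 and Igfbp2, Pik3r3, a regulatory subunit of PI3 kinase, rose to 1745, 1652 and 1695 from 584, 479, 535, 665 and 558, log2 difference 1.57 ± 0.11 (SE), adjusted p = 7.2e-10. Irs1, the adaptor of the receptor, fell to 2663, 3286 and 3311 from 5216, 5978, 5192, 4180.4 and 5034, and Igf1r, the receptor, to 487, 538 and 523 from 891, 878, 799, 764 and 609.7, log2 differences -0.73 and -0.59. The Notch list was split, with 5 rises and 5 falls of 24, of which 3 rises and 2 falls were called against the 4 h vehicle alone. Hes6, which counters Hes1, read 987, 1000.5 and 983 with drug and 463, 551, 443, 418 and 481 with vehicle, while Hes1, the repressor of proneural genes, read 92.6, 124 and 84.8 with drug and 269, 323, 237, 212 and 205 with vehicle (adjusted p = 3.1e-07 and 5e-05). The glycosyltransferase Mfng, the ligand Dll3 and the repressor Hey1 rose by 0.90, 0.97 and 1.44, and Lfng, the relative of Mfng, was lower at 60.3, 119 and 60.7 with drug and 167, 119, 196, 194 and 206 with vehicle, where drug array 2 and no-time vehicle array 2 were nearly level. The falls of this list numbered 1 to 2 without any 1 drug array or any 1 no-time vehicle array, Hey1 lost its call without drug array 2 (0.065) and Lfng without drug arrays 1 or 3 (adjusted p up to 0.081).

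Wnt and TGF-beta genes showed few calls, some of them large. Of 35 Wnt genes 3 fell (8.6%) and 1 rose (2.9%), and 2 of the falls and the rise were called against the 4 h vehicle alone. Wnt4, a ligand, read 313, 391 and 291 with drug and 1542, 1503, 1767, 861 and 1430.1 with vehicle, log2 difference -2.02 ± 0.26 (SE), adjusted p = 9.2e-06. Wif1, a secreted inhibitor, read 116, 106 and 114 with drug and 455, 448, 456, 373 and 293 with vehicle, and Fzd1, a receptor, fell by -1.04 on the log2 scale. Apc, of the complex that degrades beta-catenin, rose by 0.70. In the BMP, activin and TGF-beta list 5 of 37 fell and 2 rose, of which 3 falls and 1 rise were called against the 4 h vehicle alone. Tgfb1, the ligand, read 149.7, 159 and 117 with drug and 711, 792, 630.0, 297 and 358 with vehicle, with the 4 h vehicle arrays lowest among vehicle, and Smad3, its intracellular mediator, read 136, 148 and 122 with drug and 510.1, 492, 525, 406 and 454 with vehicle, log2 differences -1.77 ± 0.27 and -1.70 ± 0.19 (SE). Chrd, an antagonist of BMP ligands, was lower by -1.17. Id2, a target of BMP signals that blocks bHLH factors, read 2725, 1934 and 2314 with drug and 1186, 1226, 1551, 1022 and 961 with vehicle, a 1.95-fold rise (adjusted p = 0.00014). Without drug arrays 1 or 2 the falls of this list numbered 3, and without drug array 1 there was 1 rise.

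Immediate early genes, which respond within minutes to growth factor signals, gave 7 falls and no rise among 29 (24.1%). Egr1 read 89.3, 50.8 and 75.9 with drug and 296, 297, 356, 325 and 347 with vehicle, a 3.92-fold fall (log2 difference -1.97 ± 0.16 SE, adjusted p = 5.1e-09). Fosl2, a component of AP-1, read 177, 148 and 171 with drug and 578, 509.9, 472, 673 and 580.3 with vehicle, and Egr2 43.5, 19.2 and 41.7 with drug and 161, 132, 161, 85.6 and 125 with vehicle. Jun fell by -0.62 on the log2 scale. The list held 4 falls without drug arrays 2 or 3, and 4 against the 4 h vehicle alone, where Egr1, Fosl2, Egr2 and Jun were the called members (adjusted p of 5.8e-07, 3.1e-07, 0.01 and 0.021). A list of MAPK feedback regulators and PEA3 factors, which also holds Ccnd1 and Myc of other lists, gave 3 rises and 3 falls of 19. Its median was -0.01. The rises were the feedback regulator Dusp4, the PEA3 factor Etv5 and Myc, and the falls Spred1, the PEA3 factor Etv4 and Ccnd1. Of these, 2 falls and no rise were called against the 4 h vehicle alone, and against the no-time vehicle alone 3 falls and 1 rise. The list held 0 rises without drug array 1 and 1 without drug array 3. Among 17 SOX genes, where 2 rose and 1 fell under either control, Sox8 rose with Sox4 (232, 164 and 151 with drug and 50.1, 45.4, 48.7, 48.6 and 63 with vehicle).

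Metabolic lists held few calls. No call was made among 38 respiratory chain genes, where 3 had an unadjusted p under 0.05 by limma. Among 35 glycolysis and hypoxia genes Hk2, the inducible hexokinase, read 256, 222 and 259 with drug and 906, 852, 925, 1193 and 1016 with vehicle, log2 difference -1.92 ± 0.20 (SE), adjusted p = 3.1e-07. Slc2a1, the glucose transporter GLUT1, fell by -0.81, a call lost without any 1 drug array, no-time vehicle array 1 or 4 h vehicle array 1 (adjusted p up to 0.089), and its falls then numbered 1. The list held 1 rise and 2 falls with a median of -0.19, and against the 4 h vehicle alone both falls and not the rise were called. Srebf1, the regulator of fatty acid synthesis, read 665, 826 and 747 with drug and 2078, 2175, 2417, 863 and 1649.8 with vehicle, where 4 h vehicle array 1 was close to the drug arrays (adjusted p = 0.00067, and 0.087 against the 4 h vehicle alone). The amino acid transporter Slc7a5 fell by -0.94. By list, 1 rise and 2 falls were called among 30 genes of sterol and fatty acid synthesis, 1 rise and 3 falls among 25 of serine synthesis and amino acid response, and 2 falls among 28 of the unfolded protein and heat shock response; against the 4 h vehicle alone 1 rise and 1 fall, 2 falls and 1 fall of these were called. The sterol list lost its rise without any 1 array but no-time vehicle array 1 and held 1 fall without any 1 drug array, no-time vehicle array 2 or 4 h vehicle array 2. The serine list lost its rise without drug arrays 1 or 3 and held 2, 5 and 1 falls without drug array 1, 2 or 3. The heat shock list held 0 falls without drug arrays 1 or 3, 1 without any 1 no-time vehicle array or 4 h vehicle array 2, and 1 rise without no-time vehicle array 2 or 4 h vehicle array 2. Its 2 falls were 7.1% of the list, against 4.45% of all genes. Most of its members leaned the other way: 19 of 28 differences were positive and the median was 0.11. At an unadjusted p under 0.05 by limma 9 were higher and 3 lower. Glucocorticoid-responsive genes gave 6 rises and 1 fall of 19 (31.6% higher). Mt1, a metallothionein, read 3465, 2666 and 3002 with drug and 1782, 1015, 1107, 1606 and 977 with vehicle, Sgk1, a kinase, 262, 242 and 251 with drug and 134, 171, 141, 93.8 and 97.5 with vehicle, and Tsc22d3, the leucine zipper protein GILZ, 338, 267 and 281 with drug and 144, 129, 159, 212 and 161 with vehicle. Against the 4 h vehicle alone 2 members were higher. The p53 and apoptosis list gave 3 rises and 3 falls of 31, with Trp53inp1 at 2817, 3088 and 3279.7 with drug and 1644, 1449, 1462, 1608 and 1354 with vehicle (log2 difference 1.02 ± 0.15 SE, adjusted p = 5.6e-05). Its other calls were each lost without at least 1 drug array: 1 rise was left without drug array 1, 5 rises were found without 4 h vehicle array 1, and the falls numbered 1, 0 and 1 without drug array 1, 2 or 3. The 4 h vehicle alone as control left 1 of its rises and none of its falls. Of 22 circadian genes 4 fell, led by the clock output factor Hlf (16.2, 42.8 and 27.9 with drug and 108, 131, 153, 146 and 123 with vehicle), and the list held 1 fall without drug array 2 and 2 without drug array 1, no-time vehicle array 3 or 4 h vehicle array 1. Against either vehicle group alone 2 of the 4 falls were called. No sampling hour is given, so time of day and treatment cannot be told apart. Cilium genes, the organelle through which the Hedgehog signal passes, gave 1 rise and no fall of 34 (0 rises without drug array 1 and 2 without 4 h vehicle array 1), and interferon genes 1 rise and no fall of 26 (2 rises without no-time vehicle array 3). Neither of these rises was called against the 4 h vehicle alone.

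Markers of host cells and of other neural cells were measured beside these results. Endothelial markers gave 1 call among 21, the fall of Sox18, and their summed signal was 1923 to 2263 with drug and 1698 to 2949 with vehicle. Cd34 and Aplnr, with the next highest signals of this list, overlapped (0.10 and 0.45 on the log2 scale). Macrophage markers gave 1 call among 24, Msr1, lost without drug arrays 2 or 3, no-time vehicle arrays 1 or 2 or 4 h vehicle array 2 (adjusted p up to 0.22), and their summed signal was 4316 to 4915 with drug and 2934 to 6358 with vehicle; Lyz1, Csf1r and Lyz2 overlapped. Fibroblast and matrix markers gave 1 fall of 23, Fbln2, at 56, 66.6 and 60.2 with drug and 199, 244, 243, 350.4 and 240.2 with vehicle, while Col3a1 read 3066, 3735 and 2687 with drug and 1188, 3129, 2579, 2729 and 2690.0 with vehicle. The other members of this list were more often higher: 17 of 23 had a positive log2 difference, the median was 0.35, and 3 were higher and 2 lower at an unadjusted p under 0.05 by limma. The summed signal was 16810 to 20102 with drug and 9914 to 18044 with vehicle. The collagen genes Col1a1 and Col6a2, added here, lay wholly above vehicle without a call. They were the 2 of 23 to do so, against 11% of all genes. Wholly below lay 2 of 23, Fbln2 and the collagen gene Col5a1, also added, against 8.32% of all genes. Col5a1 was not called and read 341.9 to 395.4 with drug and 471.7 to 672.4 with vehicle. Col1a1 read 917, 1041 and 981 with drug and 323, 748, 712, 407 and 742 with vehicle (adjusted p = 0.26), and Col6a2 read 755, 852 and 687 with drug and 388, 632, 636, 512 and 571 with vehicle (adjusted p = 0.22). Sparc and Vim, the other bright members, overlapped (0.09 and 0.35 on the log2 scale). Lists for pericytes, neutrophils, lymphocytes, skeletal muscle, adipocytes, skin and erythroid cells gave no call. At an unadjusted p under 0.05 by limma, neutrophil and skin markers held 1 lower gene each, adipocyte markers 2 higher and erythroid markers 1 higher. Of 9 adipocyte markers 8 had a positive difference and 1 a negative one, with a median of 0.30. Adipoq, added here, was the 1 of them wholly above vehicle, at 49.7 to 72.1 with drug and 12.5 to 25.7 with vehicle. The 3 brightest markers of each of these 7 lists had log2 differences from -0.68 (Krt10 of skin and Camp of neutrophils) to 1.52 (Fabp4 of adipocytes), with adjusted p of 0.1, 0.18 and 0.15. Skeletal muscle markers had the widest spread, with a summed signal of 2414 to 5455 with drug and 1396 to 14802 with vehicle, and Acta1 read 749.8, 426 and 200.3 with drug and 27.8, 3128, 61.5, 381 and 668 with vehicle. Glial lists gave 4 falls, namely S100b (269.5, 268 and 296 with drug and 1324, 1020.4, 1358, 1194 and 1107 with vehicle), Olig1 (136, 126 and 138 with drug and 525, 389, 587, 349 and 443 with vehicle), Olig2 and Hopx, whereas Glul of astrocytes and Mbp of oligodendrocytes overlapped (-0.18 and -0.04 on the log2 scale). Signs in the glial lists were divided. Of 15 astrocyte markers, Vim among them, 9 had a positive difference and 6 a negative one, and the median was 0.23. Of 9 oligodendrocyte markers 4 had a positive difference and 5 a negative one, with a median of -0.04. Sox9 of astrocytes, added here, lay wholly below vehicle without a call, at 42.9 to 71.0 with drug and 75.3 to 128.6 with vehicle (adjusted p = 0.1). Slc1a2, a glutamate transporter, and Cnp, a myelin enzyme, both added here, lay wholly above vehicle. Each was the 1 member of its list to do so, where 11% of all genes did. Wholly below lay 3 of 15 astrocyte and 2 of 9 oligodendrocyte markers, against 8.32% of all genes. Slc1a2 read 622, 633 and 684 with drug and 558, 411, 499, 518 and 554 with vehicle (adjusted p = 0.43), and Cnp 263, 258 and 231 with drug and 177, 136, 196, 169 and 202 with vehicle (adjusted p = 0.094). The gap junction gene Gja1, also added, overlapped, at 0.42 on the log2 scale. Of the 4 glial falls 2 were called against the 4 h vehicle alone. Olig2 lost its call without drug arrays 1 or 2 or no-time vehicle array 2 (adjusted p up to 0.11), and Hopx without any 1 drug array or no-time vehicle arrays 1 or 3 (up to 0.17). Summed signals of 3 marker lists did not overlap between the groups, and those of every other marker list did. Among all single genes 11% lay wholly above vehicle and 8.32% wholly below. Erythroid markers summed to 375 to 448 with drug and 258 to 333 with vehicle. Skin markers summed to 376 to 419 and 430 to 608, and oligodendrocyte markers to 903 to 958 and 1183 to 1476, in the same order. Without Olig1 and Olig2 the other 7 oligodendrocyte markers read 609 to 695 with drug and 541 to 691 with vehicle, which overlap. Most of the erythroid sum was Bpgm, at 268 to 328 with drug and 213 to 269 with vehicle, and no tested erythroid marker lay wholly above vehicle. In the skin list Krt10 read 141 to 158 with drug and 207 to 283 with vehicle. Lor, Sbsn and Dsp of that list overlapped, and Krt14 lay above vehicle, at 12.7 to 21.1 with drug and 1.6 to 11.4 with vehicle. Of the marker genes of all these lists 170 were tested, 22 lay below the filter on low signals and 15 had no probe set of their own. The part of these markers in the results above was not tested.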

How the data were processed

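Tumour RNA was hybridised to 23 arrays, and the labels do not say whether same-group arrays came from separate mice. Per the submitters' processing notes the authors used MAS5, and the deposited values are linear intensities, 1 per probe set, whose trimmed mean (2% from each end) was 150.0 on every array; other upstream steps are not given in the sources used here. The design text names a smaller array than the 45101 probe sets deposited. The offset 16 was added before log2; probe sets above the 40th percentile of an array on at least 2 arrays were kept. limma 3.58.1 in R 4.3.3 (lmFit, contrasts, eBayes with trend) was fitted to all 23 arrays in 7 groups, with all vehicle arrays as 1 group, p-values were adjusted over the 35066 probe sets, and other fits split the vehicle groups. Tested on simulated data, this step called 93 of 100 probe sets changed by 1 on the log2 scale, 43 of 100 changed by 0.5, and 6 falsely. The changed probe sets were drawn from those with a mean vehicle signal above 100. Simulated noise was independent, with no difference between vehicle groups or runs. These counts therefore do not cover dimmer probe sets or such differences. Arrays carry no read depth, so their number limits the precision.

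Probe sets were named from the platform annotation: 34945 had 1 symbol, 932 several and 9160 none, and only the first kind was used for genes. Members and gene lists (46) were chosen with earlier results of these data known. Genes named were drawn from the Hedgehog pathway members with Mycn, Ccnd1, Ccnd2, Sfrp1 and Fst, the 15 largest non-overlapping rises and falls, up to 5 called genes per list and direction by p, the 3 brightest genes of each marker list, and Mki67, Top2a, Ccnb1 (below the filter), Neurod1, Dcx and Atoh1; others are said to be added. Alternatives were other offsets, filters, quantile normalization, other controls and blocks, and leaving out each array. Equal replicate numbers do not pair samples (correlations from -0.031 to 0.057).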

Additional observations from a re-analysis of the deposited data

Results flagged for a closer look

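In the genes named above, 1 vehicle array stood apart from the other 4 on the log2 scale in the following cases; by chance about 1 in 20 such groups would be picked out. Ihh read 1.9 on 4 h vehicle array 2 and 22.2 to 29.8 on the others. Mycn read 1286 on no-time vehicle array 2 and 1068 to 1111 on the others. Epha8 read 95.4 on no-time vehicle array 3 and 159 to 187 on the others. Msh6 read 1077 on 4 h vehicle array 2 and 895 to 923 on the others. Col3a1 read 1188 on no-time vehicle array 1 and 2579 to 3129 on the others. Mki67 read 3956 on 4 h vehicle array 1 and 4735 to 4860 on the others.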

How the results depend on the processing

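The 8 h count of 2367 probe sets fell to 983 with the run of title numbers as a block, 1139 against the 4 h vehicle alone and 594 against the single 4 h vehicle array of the same run, and was 1410 to 2250 without any 1 array; it stayed within 1.5 times of 2367 under the other alternatives. The vehicle count of 43 became 23 without the trend in eBayes, 127 with only the compared arrays in the fit, 3 with the run block and 15 to 20 without any 1 array. The 8 h against 4 h drug count of 170 became 94, 633 (same first 2 settings) and 77 to 120 without any 1 array. With the replicate number as a block, which does not pair these samples, the counts were 2217, 29 and 150. Of the called differences of named genes, only that of Zfand6 changed sign under these alternatives, to 0.08 against the 4 h vehicle alone and 0.11 against the array of the same run; the cause was not tested. The limits are 3 drug arrays, no vehicle array at 8 h, and low signals, whose log2 differences the offset understates.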
